A study of Homo sapiens with 12 samples.

Results

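PPME1 and 7 genes of protein phosphatase 2A (PP2A) were followed in 2 human cancer cell lines treated with SWTX-143, an inhibitor that binds irreversibly to the TEAD transcription factors. The 8 genes are PPME1, LCMT1, PPP2CA, PPP2CB, PPP2R1A, PPP2R1B, PPP2R2A and IGBP1, selected by symbol from the 27064 gene symbols present in the count tables of both lines. The choice was made on measured values, the SWTX-143 effect in each line, so those effects and their difference between the lines are given as a description, with no test. NCI-H226 (H226 here) is described by the submitters as a mesothelioma line and ACHN as a kidney cancer line, and both are described as deficient in NF2, the gene for the Hippo pathway protein merlin. All 4 groups therefore share NF2 deficiency, and no NF2-competent line was compared. Cells were grown in 6-well plates and exposed overnight to SWTX-143 at 100 nM, or to its solvent DMSO, with 3 libraries per group and 12 in all. Each line is a single established line, and the labels do not say whether its libraries came from separate cultures, so the p-values below measure the spread between these libraries, which may be technical.

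PP2A is one of the main serine/threonine phosphatases of animal cells. Its core joins a catalytic subunit (PPP2CA or PPP2CB) to a scaffold (PPP2R1A or PPP2R1B), and a regulatory B subunit such as PPP2R2A directs the complex to its substrates. LCMT1 adds a methyl group to the carboxyl-terminal leucine of the catalytic subunit, which favours binding of certain B subunits, and the esterase PPME1 removes it. IGBP1 binds catalytic subunits that are outside the holoenzyme and protects them from degradation. PP2A also takes part in Hippo signalling: within the STRIPAK complex, striatin subunits bring it to the MST kinases, which it restrains. YAP and TAZ, the proteins that the Hippo pathway keeps in check, act on DNA through TEAD factors, and CTGF and CYR61 are textbook targets of this pair.

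The 250 bases upstream of the annotated start are shown for both enzymes of the methylation cycle, PPME1 and LCMT1, and for CTGF (CCN2 in RefSeq), whose promoter is a textbook TEAD target. The sequences are from RefSeq on GRCh38.p14, which held an entry for 6 of the 8 genes. Each run is written 5′ to 3′ along the gene. Capitals mark the TEAD motif GGAATG or its reverse complement CATTCC and, in PPME1, the ETS motif CTTCCGG or its reverse complement CCGGAAG, the latter chosen after the PPME1 sequence had been seen. The PPME1 window is chr11:74171039-74171288 on the + strand, that of LCMT1 chr16:25111492-25111741 on the + strand, and that of CTGF chr6:131951373-131951622 on the − strand.
PPME1: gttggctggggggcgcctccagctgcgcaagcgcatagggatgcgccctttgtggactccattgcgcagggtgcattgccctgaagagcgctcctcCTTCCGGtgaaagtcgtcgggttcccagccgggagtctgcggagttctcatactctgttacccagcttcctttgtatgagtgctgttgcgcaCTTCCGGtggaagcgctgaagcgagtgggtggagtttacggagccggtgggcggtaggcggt
LCMT1: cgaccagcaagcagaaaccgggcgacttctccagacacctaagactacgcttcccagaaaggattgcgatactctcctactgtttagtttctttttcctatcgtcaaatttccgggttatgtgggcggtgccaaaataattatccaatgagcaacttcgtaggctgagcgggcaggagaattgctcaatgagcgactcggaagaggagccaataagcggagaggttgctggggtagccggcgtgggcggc
CTGF: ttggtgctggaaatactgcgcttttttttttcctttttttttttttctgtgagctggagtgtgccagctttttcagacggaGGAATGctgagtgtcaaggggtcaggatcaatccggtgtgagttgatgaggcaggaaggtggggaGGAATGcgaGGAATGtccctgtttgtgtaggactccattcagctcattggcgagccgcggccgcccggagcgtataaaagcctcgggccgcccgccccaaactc
The CTGF window held 3 copies of the TEAD motif, while those of PPME1 and LCMT1 held 0. No upstream window of PPP2CA, PPP2R1A, PPP2R1B or IGBP1 held it either. Of 35116 human promoters of the same length, 11.9% held the TEAD motif on either strand, 6.57% the AP-1 motif TGANTCA, which was in neither the PPME1 nor the LCMT1 window, and 8.52% the ETS motif. PPME1 held 2 copies of the ETS motif, and 1 of the 2 IGBP1 windows held 3. These are matches of letters in a short window, and whether a factor binds there was not measured.

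The libraries held 9690980 to 11262663 counts each, and values are given below as CPM (the count relative to a library of 1000000 counts) after TMM scaling over all 12 libraries, as mean ± SD with n = 3. CTGF, a check that the inhibitor acted, fell in both lines, by 2.53 ± 0.08 (SE) on the log2 scale in H226 and by 2.39 ± 0.06 in ACHN, with edgeR quasi-likelihood adjusted p of 1.83e-29 and 4.77e-35. Of 8 mesothelial markers, 8 exceeded 5 CPM in untreated H226 and 2 in untreated ACHN. Of 8 kidney tubule markers, 5 exceeded 5 CPM in untreated ACHN and 2 in untreated H226, and EMX2 was at 0 in every library. The kidney markers CDH6 and AQP1 went the other way. CDH6 was at 122 CPM in untreated H226 and 0.211 CPM in untreated ACHN, and AQP1 at 4.85 and 0.178 CPM. In the H226 control libraries, the immune list (1 of 5 markers over 5 CPM, CD68) summed to 10.5 to 13.0 CPM and the endothelial list (2 of 5, KDR and TIE1) to 224 to 234 CPM. In the ACHN control libraries the immune list (1 of 5, CD68) summed to 42.7 to 45.4 CPM. The endothelial list (0 of 5) summed there to 0.0868 to 0.550 CPM. PTPRC, the pan-leukocyte marker, was at 0 in every library, and the endothelial markers PECAM1 and CDH5 stayed under 1 CPM.

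PPME1, the methylesterase, was much lower with SWTX-143 in both lines and was the only one of the 8 genes to differ by more than 2-fold. In H226 it stood at 584, 593 and 599 CPM in the DMSO libraries and at 189, 195 and 187 CPM in the treated ones. In ACHN it stood at 164, 158 and 177 CPM with DMSO and at 75.1, 74.7 and 75.1 CPM with the inhibitor. Every treated library lay below every DMSO library of its line, with a wide gap. The means were 592 ± 7.48 against 190.2 ± 3.83 CPM in H226, 3.13-fold lower, and 166 ± 9.26 against 74.9 ± 0.202 CPM in ACHN, 2.24-fold lower. On the log2 scale the fitted changes were -1.65 ± 0.04 (SE) and -1.17 ± 0.05. Between 2541 and 17858 PPME1 reads per group stood behind these values.

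The size of the PPME1 change placed it near the bottom of each transcriptome. Genes were ranked if their mean over all libraries of the line, DMSO and treated together, was at least 5 CPM. Among these, the PPME1 change was the 13th lowest of 10997 in H226 and the 18th lowest of 11169 in ACHN. Genes with a lower mean were left out, whatever their change. Genes called lower by more than 2-fold made up 0.912% of those tested in H226 and 0.371% in ACHN. The H226 change exceeded the ACHN change by 0.49 ± 0.06 on the log2 scale. PPME1 remained higher in H226 than in ACHN after treatment, with a ratio of 3.56 between the lines under DMSO and 2.54 under the inhibitor. The order of the groups was H226 with DMSO, H226 treated, ACHN with DMSO and ACHN treated, and no neighbouring groups overlapped: treated H226 libraries spanned 187 to 195 CPM and ACHN DMSO libraries 158 to 177 CPM. In bulk RNA, fewer cells expressing a gene and less RNA per cell cannot be told apart.

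**Figure D1:**
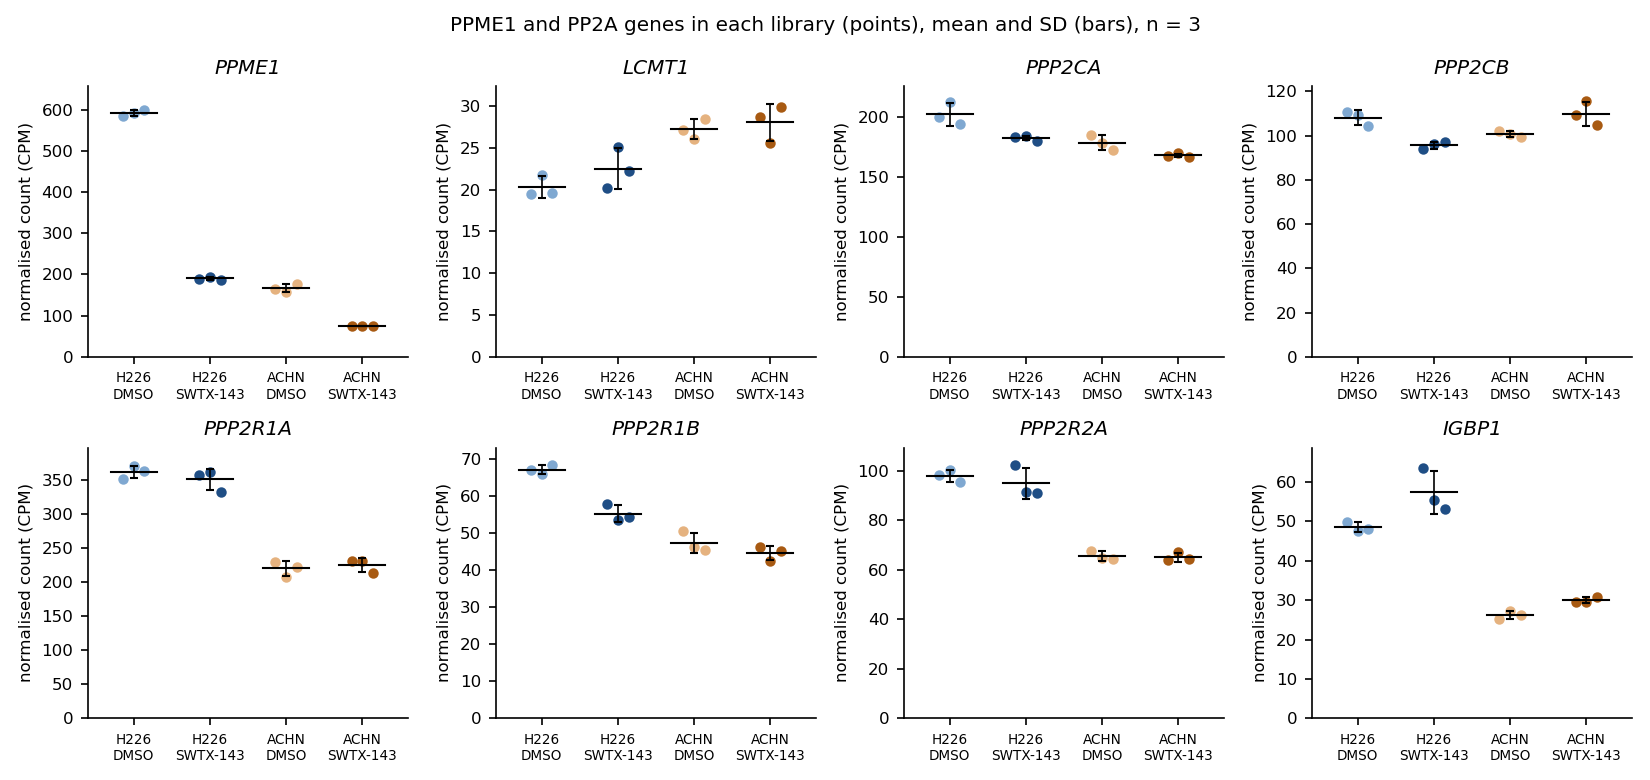
Normalised counts (CPM, y axis, linear from 0) of the 8 genes in the 4 groups (x axis). Points are libraries, and bars are the mean and SD of 3. The PPME1 points separate into 4 levels, from 584 to 599 CPM in H226 with DMSO down to 74.7 to 75.1 CPM in treated ACHN, while the other genes stay close to their DMSO level.

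LCMT1, the methyltransferase that opposes PPME1, differed little. Its H226 libraries read 19.5, 21.8 and 19.6 CPM with DMSO and 20.3, 25.1 and 22.2 CPM with SWTX-143. In ACHN they read 27.1, 26.1 and 28.5 CPM, against 28.7, 25.6 and 29.9 CPM. The groups overlapped in both lines, with log2 changes of 0.14 ± 0.09 and 0.03 ± 0.08 (SE). LCMT1 had the fewest counts of the 8 in H226, and hence the widest SE.

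The transcript ratio between the 2 enzymes of the methylation cycle moved with PPME1. To compare genes, CPM were divided by transcript length in kilobases (the median over annotated protein-coding transcripts, 2586.5 bases for PPME1 and 1178.5 for LCMT1). PPME1 exceeded LCMT1 by 13.3 ± 0.83 times per length in H226 with DMSO (12.4 to 13.9 across libraries) and by 3.87 ± 0.362 times with SWTX-143 (3.53 to 4.25). In ACHN the ratio was 2.78 ± 0.0382 with DMSO (2.75 to 2.82) and 1.22 ± 0.0971 with the inhibitor (1.14 to 1.33). None of the 4 groups overlapped. With the longest transcript of each gene as the length, the ratios were 15.0, 4.34, 3.12 and 1.37 in the same order. Relative to both catalytic genes together, PPME1 stood per length at 1.85 ± 0.0801 in H226 with DMSO and 0.667 ± 0.0128 with SWTX-143, and at 0.568 ± 0.0411 and 0.247 ± 0.00978 in ACHN. These ratios describe RNA, and neither protein nor methylation of the catalytic subunit was measured.

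The catalytic genes PPP2CA and PPP2CB encode near-identical proteins. PPP2CA was at 200.2, 213 and 194 CPM with DMSO in H226 and at 184, 184 and 180.4 CPM after treatment, a log2 change of -0.16 ± 0.04 (SE). In ACHN it was at 185, 178 and 173 CPM, against 167, 169.9 and 167 CPM, a change of -0.10 ± 0.04. All treated libraries were lower in both lines, by a small amount. PPP2CB went in opposite directions: 111, 109 and 104 CPM against 93.8, 96.1 and 97.0 CPM in H226, and 102, 101 and 99.4 CPM against 109, 116 and 105 CPM in ACHN. Its log2 changes were -0.19 ± 0.05 and 0.11 ± 0.05, with all treated libraries lower in H226 and all higher in ACHN.

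Per length, PPP2CA made up 35.2 ± 0.869% of the catalytic pair in H226 with DMSO and 35.7 ± 0.596% with SWTX-143, and the libraries overlapped. In ACHN its share was 34.0 ± 0.518% with DMSO and 30.8 ± 0.866% with the inhibitor, without overlap (33.5 to 34.5% against 29.9 to 31.6%). The level of these shares depends on the length used: with the longest transcripts they were 44.7%, 45.2%, 43.3% and 39.8%. How reads shared by the near-identical copies were assigned is not given in the sources used here, so the split within this pair, and within the scaffold pair, is uncertain.

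The scaffold genes differed from each other in H226. PPP2R1A, the main scaffold, was at 352, 370.3 and 363 CPM with DMSO and at 358, 362 and 333 CPM with SWTX-143 in H226. In ACHN it was at 230.3, 208 and 222 CPM, against 232, 231 and 213 CPM. The groups overlapped in both lines, with log2 changes of -0.05 ± 0.04 and 0.02 ± 0.04 (SE). PPP2R1B, the second scaffold, was at 67.0, 66.0 and 68.4 CPM in untreated H226 and at 57.9, 53.7 and 54.4 CPM after treatment. This log2 change of -0.29 ± 0.06 was the largest of the 8 genes in H226 after PPME1. In ACHN the groups overlapped, at 45.5 to 50.6 CPM with DMSO and 42.4 to 46.2 CPM with the inhibitor (-0.10 ± 0.06). PPP2R1B overlaps SIK2 on the opposite strand, and whether counting used strand is not given in the sources used here. SIK2 itself had a log2 change of 0.00 ± 0.05 in H226 (edgeR adjusted p = 0.996) and -0.04 ± 0.07 in ACHN (adjusted p = 0.765). Per length, PPP2R1A was 86.9 ± 0.405% of the scaffold pair in H226 with DMSO and 88.6 ± 0.536% with SWTX-143, without overlap, and 85.1 ± 0.571% and 86.1 ± 0.838% in ACHN, with overlap.

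**Figure D2:**
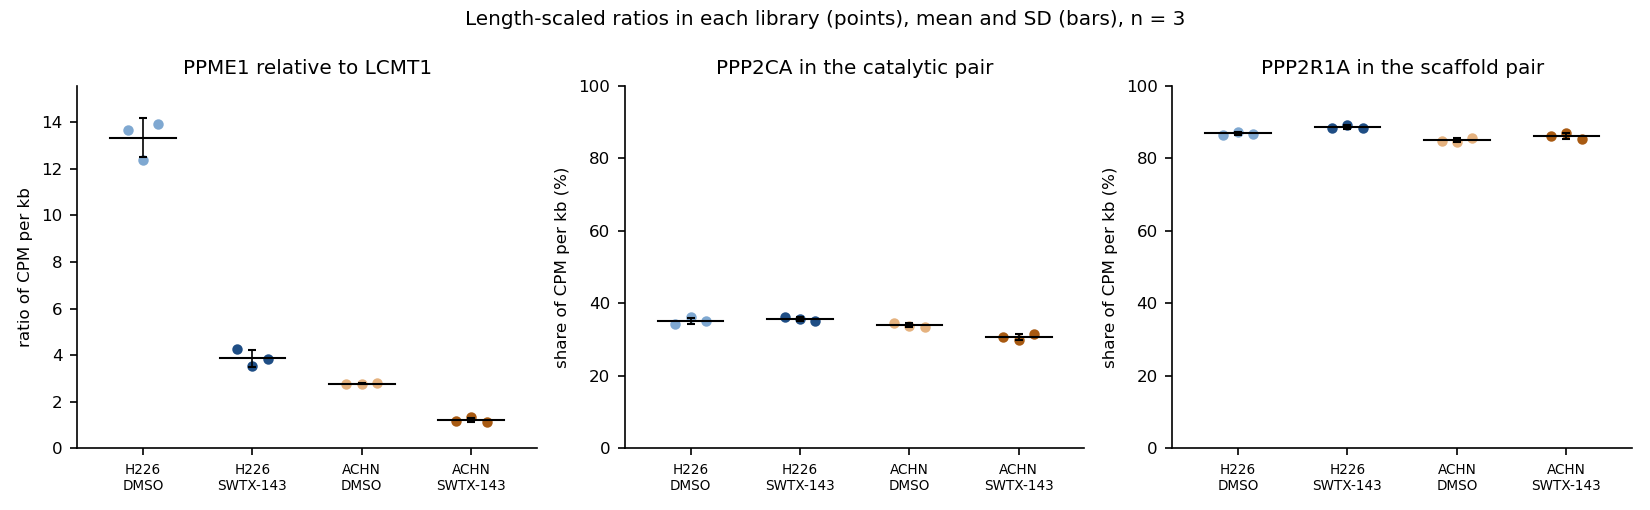
Length-scaled ratio of PPME1 to LCMT1 (left, y axis as a ratio), PPP2CA as a share of the catalytic pair (middle, %) and PPP2R1A as a share of the scaffold pair (right, %) in the 4 groups (x axis). Points are libraries, and bars are the mean and SD of 3. The PPME1 to LCMT1 ratio is 13.3 and then 3.87 in H226, and 2.78 and then 1.22 in ACHN, while the subunit shares move by a few percentage points.

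PPP2R2A, the regulatory subunit whose binding is favoured by methylation of the catalytic tail, overlapped between groups in both lines. It was at 98.1, 100.2 and 95.4 CPM with DMSO and at 102, 91.3 and 91.0 CPM with SWTX-143 in H226. In ACHN it was at 64.2 to 67.7 CPM with DMSO, against 63.8 to 67.2 CPM. The log2 changes were -0.06 ± 0.05 and -0.02 ± 0.05 (SE).

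IGBP1, the guardian of free catalytic subunits, was higher in every treated library of both lines. In H226 it was at 49.9, 47.5 and 48.1 CPM with DMSO and at 63.5, 55.4 and 53.2 CPM with the inhibitor. In ACHN it was at 25.2, 27.2 and 26.1 CPM, against 29.5, 29.5 and 30.9 CPM. The log2 changes were 0.23 ± 0.06 and 0.18 ± 0.07 (SE), the most positive among the 8 genes in each line.

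As a description set beside all genes, the other 7 genes had changes of similar median size. Their log2 changes lay between -0.29 and 0.23 in H226, and between -0.10 and 0.18 in ACHN, and the median size of the change was 0.16 and 0.10, against 0.18 and 0.10 over all genes tested. All 8 passed the filter on low counts in each fit. In H226, 5 of the 8 lay past an edgeR adjusted p of 0.05, where 40.7% of all 13484 genes tested did, and 4 of the 8 without DMSO replicate 2 or SWTX-143 replicate 1. In ACHN it was 1 of the 8, where 17.8% of 13483 did, and 3 of the 8 under either other scaling. Groups did not overlap for 5 of the 8 in H226 and for 4 of the 8 in ACHN, against 48.4% and 31.7% of all genes. Since these effects were in view when the genes were chosen, the counts are no test, and nothing is read from them.

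**Figure D3:**
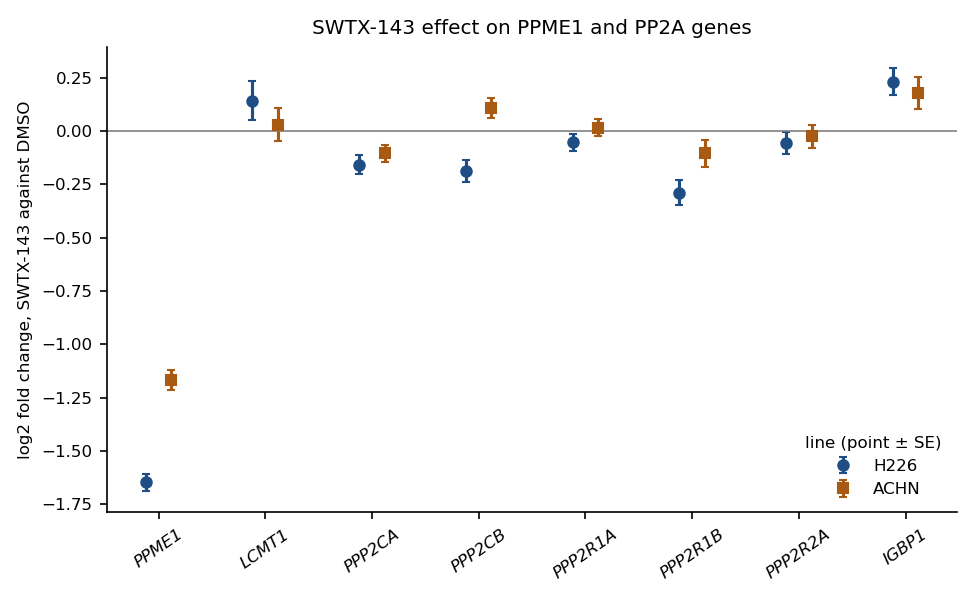
Log2 fold change of SWTX-143 against DMSO (y axis) for the 8 genes (x axis) in H226 (circles) and ACHN (squares), with the SE as error bars, from 3 libraries per group. PPME1 lies at -1.65 and -1.17, and the other genes between -0.29 and 0.23.

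The control libraries give a contrast other than the one used to choose the genes: H226 against ACHN, both with DMSO. It is not independent of that choice, since the same DMSO libraries enter the SWTX-143 effects and earlier results were known. PPME1 was 3.56-fold higher in H226 (log2 difference 1.83 ± 0.04, edgeR quasi-likelihood adjusted p = 2.35e-56), the widest gap among the 8. IGBP1 (0.89 ± 0.07, adjusted p = 5.44e-20), PPP2R1A (0.72 ± 0.04, adjusted p = 4.19e-27), PPP2R2A (0.58 ± 0.05, adjusted p = 5.88e-17) and PPP2R1B (0.50 ± 0.06, adjusted p = 2.26e-12) were also higher in H226. LCMT1 was the only one lower in H226, by 0.42 ± 0.09 (adjusted p = 5.93e-06). The catalytic genes differed least, PPP2CA by 0.18 ± 0.04 (adjusted p = 0.000113) and PPP2CB by 0.10 ± 0.05 (adjusted p = 0.0466).

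All 8 passed the limit in this comparison of control libraries, where 84.4% of the 14664 genes tested did, so a call by itself says little. Scaling by library size alone moved the median of all genes by -0.16. PPP2CA was then at 0.02 and not called, and PPP2CB was at -0.06, on the other side of 0. The PPP2CB call was also lost in 7 of 12 refits without 1 library (values of 0.09 to 0.11), under DESeq2, with upper-quartile scaling, without the filter on low counts and with the replicate number as a block. Line and handling cannot be told apart here, since every library of a line shares that line's handling.

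Per length, PPME1 and the main scaffold led the 8 genes in untreated H226, at 229 ± 2.89 and 228 ± 5.73 CPM per kilobase. These neighbours did not differ beyond their spread, and with the longest transcripts they were at 221 and 67.2. PPP2CB (80.2 ± 2.46), PPP2R2A (52.1 ± 1.27), PPP2CA (43.5 ± 2.07), PPP2R1B (34.4 ± 0.62), IGBP1 (27.5 ± 0.69) and LCMT1 (17.2 ± 1.11) followed, in CPM per kilobase. In untreated ACHN, PPP2R1A led at 139 ± 7.09, followed by PPP2CB at 74.7 ± 0.99 and PPME1 at 64.3 ± 3.58. This order depends on the length used: with the longest transcripts PPME1 led at 62.1, followed by PPP2CB at 50.2 and PPP2R1A at 40.9. LCMT1 stood above IGBP1 in ACHN, at 23.1 ± 1.00 against 14.8 ± 0.58 CPM per kilobase, the reverse of their order in H226.

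PPME1 lies on chromosome 11, at 74171289 to 74254703 on the + strand of GRCh38.p14, and shares its start region with C2CD3, a centriole gene that runs the other way. C2CD3 spans 74012718 to 74171002 on the − strand, and 286 bases separate the annotated starts. C2CD3 fell in both lines: from 137, 133 and 138 CPM to 81.2, 80.1 and 86.6 CPM in H226, and from 66.7, 65.8 and 72.7 CPM to 44.2, 42.2 and 40.9 CPM in ACHN. The log2 changes were -0.73 ± 0.05 (edgeR adjusted p = 5.57e-18) and -0.71 ± 0.06 (adjusted p = 3.21e-14), and the treated libraries lay below the DMSO libraries in both. They stayed between -0.76 and -0.70 in H226 and between -0.73 and -0.66 in ACHN when any 1 library was left out. The change did not differ detectably between the lines (difference -0.03 ± 0.08, adjusted p = 0.895).

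C2CD3 was, like PPME1, higher in untreated H226 than in untreated ACHN (0.99 ± 0.05, adjusted p = 4.18e-31). With both genes lower, PPME1 lost the larger share in each line. Both ETS matches of the PPME1 window lie also in the upstream window of C2CD3, since the windows cover nearly the same bases.

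P4HA3, a collagen prolyl hydroxylase gene on the − strand, overlaps the 3′ end of PPME1 by 4558 bases. Its counts were 1.21% of those of PPME1 over all libraries, and it passed no limit, with log2 changes of 0.01 ± 0.23 (adjusted p = 0.977) in H226 and 0.10 ± 0.20 (adjusted p = 0.785) in ACHN. Beyond it, PGM2L1 rose in H226 by 0.61 ± 0.23 (adjusted p = 0.0293) and had a value of -0.10 ± 0.13 in ACHN (adjusted p = 0.657). Its call was lost without DMSO replicate 1 (0.33), SWTX-143 replicate 1 (0.56) or SWTX-143 replicate 2 (0.60), and by DESeq2. UCP3, on the far side of C2CD3, had a value of -0.29 ± 0.27 in H226 (adjusted p = 0.424) and was too low to test in ACHN. MIR548AL had 0 counts. PPME1 and C2CD3 overlap in GENCODE release 29 but not in RefSeq, and the annotation used for counting is not given in the sources used here.

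**Figure D4:**
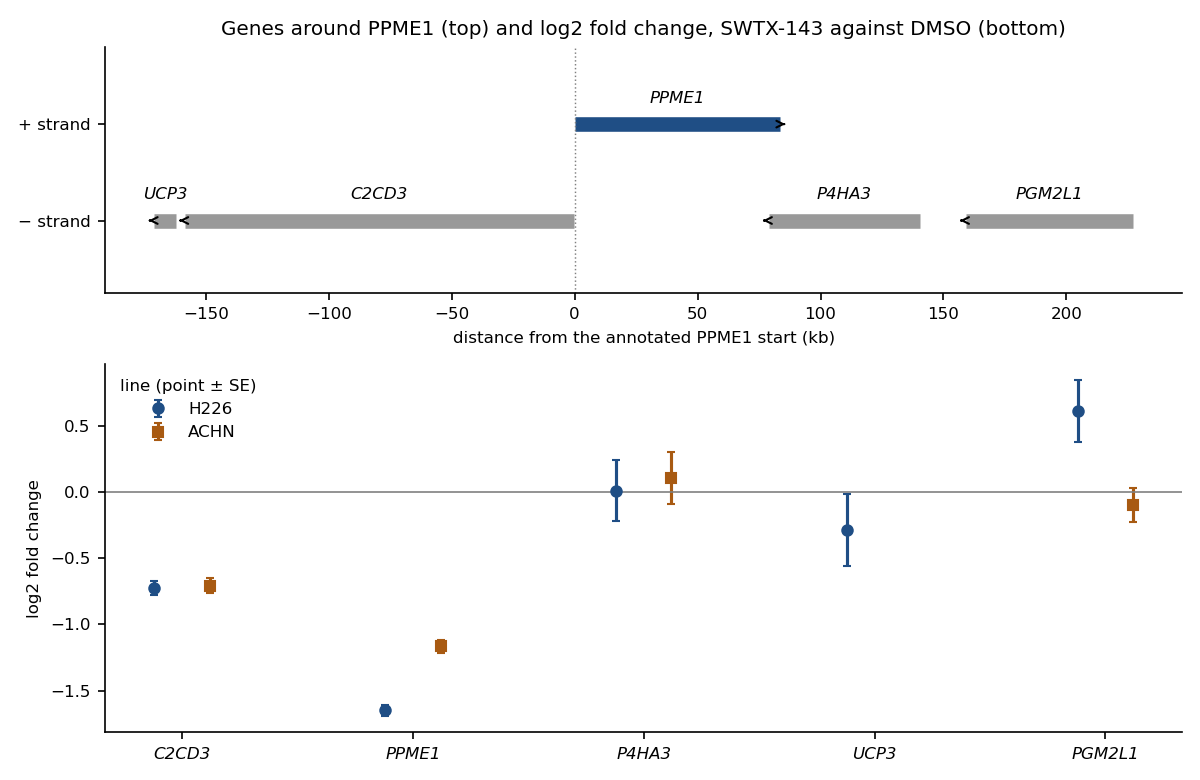
Top, genes around PPME1 by strand against distance from the annotated PPME1 start (x axis, kb), with arrows in the direction of transcription. Bottom, log2 fold change of SWTX-143 against DMSO (y axis) for these genes in H226 (circles) and ACHN (squares), with the SE as error bars, from 3 libraries per group; UCP3 was not tested in ACHN. C2CD3 at -0.73 and -0.71 and PPME1 at -1.65 and -1.17 are the genes lower in both lines.

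The genes that behaved most like PPME1 were ranked by the root mean square difference of log2 CPM, centred on the DMSO mean of each line, over the 12 libraries and 9899 genes. The nearest was CYR61 (distance 0.14), a secreted matrix protein and textbook YAP/TEAD target, with log2 changes of -1.41 ± 0.04 in H226 and -1.28 ± 0.04 in ACHN. ANKRD2, a muscle ankyrin repeat protein, followed (0.17; -1.70 ± 0.11 and -0.88 ± 0.10). SLC7A5, the large neutral amino acid transporter, was next (0.20; -1.45 ± 0.04 and -0.84 ± 0.04). GADD45B, a stress-response gene, and TUFT1 shared a distance of 0.28, with changes of -1.18 ± 0.06 and -0.96 ± 0.08 for GADD45B and -1.18 ± 0.05 and -0.92 ± 0.06 for TUFT1. The same 5 genes were named with a prior count of 0.5 in place of 2. C2CD3 ranked 32nd and CTGF, whose fall was deeper, 419th. The PP2A genes ranked far lower, PPP2R1B at 1345 being the nearest. Since values are centred on the DMSO libraries, the measure compares treatment differences and says nothing of baseline levels.

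A list of 62 further PP2A-related genes shows how far the rest of the system moved. In H226, 59 were tested, 7 rose and 14 fell, 35.6% of those tested against 40.7% of all genes. In ACHN, 57 were tested, 4 rose and 6 fell, 17.5% against 17.8%. The effect differed between the lines, by edgeR's test of the interaction, for 12 of 59 genes, 20.3% against 15.6% of all genes. The shares called in each line were near those of all genes, and the median log2 change of the list was -0.03 in H226 and -0.01 in ACHN. The H226 split depends on scaling: it was 11 up and 9 down with upper-quartile scaling, and 11 and 11 by library size alone. The lines shared 6 called genes, 28.6% of the H226 calls and 60.0% of the ACHN calls, each with the same sign. Over all genes, 1389 were called in both lines, 25.3% of the H226 calls and 57.9% of the ACHN calls, and 91.2% of them had the same sign. In the list, ANKRD52, CIP2A, PPP6R3 and STRN4 fell, and CCNG2 and PPP2R5C rose.

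Among 14 regulatory B subunits, 13 were tested in H226, where 3 rose and 1 fell (30.8% called), and 12 in ACHN, where 2 rose and 2 fell (33.3%). Over all genes 40.7% and 17.8% were called, and nothing is read from so few genes. STRN4, a striatin of the STRIPAK complex, fell from 84.4, 88.5 and 90.0 CPM to 70.0, 66.6 and 72.5 CPM in H226 (-0.34 ± 0.05, edgeR adjusted p = 6.72e-07). In ACHN it fell from 85.1, 85.1 and 94.5 CPM to 80.1, 78.6 and 74.3 CPM (-0.20 ± 0.05, adjusted p = 0.00343), a call lost without DMSO replicate 3 (-0.15). PPP2R5C, a subunit of the B′ family, rose by 0.18 ± 0.06 in H226 (adjusted p = 0.00555; lost without DMSO replicate 3, 0.13) and by 0.26 ± 0.06 in ACHN (adjusted p = 0.000314).

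PPP2R2B, a B subunit best known from neurons, rose in H226 from 1.13, 1.24 and 0.441 CPM to 4.74, 4.84 and 4.03 CPM (2.22 ± 0.27, adjusted p = 7.71e-10). No ACHN library held a count of it, and 3 counts, the limit that a count of 0 allows, would be 0.0904 CPM in the DMSO group and 0.0885 CPM in the treated group, by counting error only. PPP2R5D rose in H226 (0.13 ± 0.05, adjusted p = 0.0405). That call was lost without any 1 of 5 of the 6 libraries (0.10 to 0.14), by DESeq2, and without the filter on low counts. Its overlapping neighbour MEA1 fell in H226 (-0.18 ± 0.05, adjusted p = 0.00584). In ACHN, PPP2R2C rose by 0.28 ± 0.06 (adjusted p = 0.00122) and PPP2R3A fell by 0.29 ± 0.07 (adjusted p = 0.00318). In H226 these were at -0.02 ± 0.07 and 0.16 ± 0.08.

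Of 13 genes that assemble, activate or inhibit PP2A, 5 fell and 0 rose in H226 (38.5% called), and 1 fell and 1 rose in ACHN (15.4%), near the shares of all genes. The count of 0 rises is by edgeR at the adjusted limit: 1 gene was higher at an unadjusted p under 0.05, and DESeq2 also called 0 rises, with 4 falls. Counts for these genes under the other scalings, which moved the H226 split of the whole list, are not given. SET, an inhibitor of the catalytic subunit, fell in H226 from 794, 809 and 813 CPM to 682, 672 and 636 CPM (-0.29 ± 0.04, adjusted p = 1.09e-08). In ACHN SET was at -0.06 ± 0.03 (adjusted p = 0.239). CIP2A (KIAA1524 in the deposited tables), which inhibits PP2A towards MYC, fell from 52.3, 51.2 and 57.5 CPM to 41.4, 41.8 and 41.0 CPM in H226 (-0.38 ± 0.06, adjusted p = 1.76e-06). In ACHN it fell from 75.5, 76.5 and 72.6 CPM to 62.8, 67.2 and 68.2 CPM (-0.20 ± 0.05, adjusted p = 0.00584), a call lost without SWTX-143 replicate 1 (-0.16).

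The other falls in this group in H226 were those of ANP32B, a relative of SET (-0.24 ± 0.04, adjusted p = 4.73e-06), MASTL, the mitotic kinase that acts through ENSA and ARPP19 to inhibit PP2A (-0.25 ± 0.06, adjusted p = 0.000942), and PABIR2 (-0.19 ± 0.06, adjusted p = 0.00846). The PABIR2 call was lost without SWTX-143 replicate 1 (-0.14), by DESeq2 and with upper-quartile scaling. MASTL overlaps YME1L1, a gene with more counts on the other strand, which was at -0.02 ± 0.04 (adjusted p = 0.684). ARPP19 rose in ACHN by 0.16 ± 0.04 (adjusted p = 0.00534; lost without DMSO replicate 3, 0.13) and was at -0.08 ± 0.04 in H226.

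Of 12 further STRIPAK partners 10 were tested, and 3 of the 10 were called in H226 and 1 of the 10 in ACHN. These shares of 30% and 10% compare with 40.7% and 17.8% of all genes. In H226 the kinase STK24 rose (0.27 ± 0.04, adjusted p = 1.29e-06), STRIP2 rose (0.18 ± 0.06, adjusted p = 0.0196) and the kinase STK25 fell (-0.15 ± 0.05, adjusted p = 0.0108). STK24 went from 157, 162 and 157 CPM to 199.7, 196 and 183 CPM, while FARP1, which overlaps it on the other strand, fell (-0.17 ± 0.05, adjusted p = 0.00415). STRIP2 lost its call without DMSO replicate 2 (0.14) or SWTX-143 replicate 3 (0.11) and by DESeq2. STK25 lost its call without DMSO replicate 2 (-0.13) or SWTX-143 replicate 1 (-0.12), by DESeq2 and under both other scalings. In ACHN, CTTNBP2NL fell (-0.17 ± 0.06, adjusted p = 0.0189), a call lost without DMSO replicate 1 (-0.15), DMSO replicate 3 (-0.18) or SWTX-143 replicate 1 (-0.15), by DESeq2 and by library size alone.

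The related phosphatases PP4 and PP6 gave 4 falls among 13 genes tested in H226 (30.8%) and 2 among 12 in ACHN (16.7%). The shares called over all genes were 40.7% and 17.8%. No rise was called by edgeR or DESeq2, and 0 genes rose at an unadjusted p under 0.05. Counts under the other scalings, which moved the H226 split of the whole list, are not given for this sub-list. ANKRD52, an ankyrin subunit of PP6, fell from 294, 285 and 298 CPM to 224, 212 and 234 CPM in H226 (-0.40 ± 0.04, adjusted p = 4.16e-11), and in ACHN from 336, 335 and 352 CPM to 285, 288 and 298 CPM (-0.25 ± 0.04, adjusted p = 5.85e-07). Both calls held without any 1 library. PPP6R3, another PP6 subunit, fell by 0.14 ± 0.05 in H226 (adjusted p = 0.0150) and by 0.15 ± 0.05 in ACHN (adjusted p = 0.0169). These calls were lost without H226 DMSO replicate 3 (-0.11) or SWTX-143 replicate 3 (-0.11), without ACHN DMSO replicate 1 (-0.10) or SWTX-143 replicate 1 (-0.11), and in both lines by DESeq2 and under both other scalings. In H226, the PP4 subunits PPP4R1 (-0.16 ± 0.05, adjusted p = 0.00720; lost with upper-quartile scaling) and PPP4R4 (-0.53 ± 0.17, adjusted p = 0.00896) fell. PPP4R4 was low, at 6.69 CPM with DMSO and 4.68 CPM after treatment, and lost its call without DMSO replicate 2 (-0.34) or SWTX-143 replicate 1 (-0.44) and by DESeq2.

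Of 10 proteins that bring PP2A to other complexes, 2 rose and 3 fell in H226, and 1 rose in ACHN, or 5 and 1 of the 10 tested. That is 50% and 10%, against 40.7% and 17.8% of all genes, and nothing is read from so few genes. CCNG2, an unconventional cyclin that binds PP2A, had the largest rise of the list in both lines among genes tested in both. It went from 20.5, 17.9 and 13.7 CPM to 41.5, 39.9 and 38.1 CPM in H226 (1.18 ± 0.09, adjusted p = 2.87e-13) and from 11.2, 12.3 and 13.5 CPM to 18.6, 18.7 and 22.7 CPM in ACHN (0.68 ± 0.10, adjusted p = 6.66e-07). In H226, AXIN1, the scaffold of the beta-catenin destruction complex, fell by 0.35 ± 0.06 (adjusted p = 4.14e-06), PPFIA1, a liprin, fell by 0.32 ± 0.05 (adjusted p = 1.41e-07), and IER2, an immediate early gene, rose by 0.37 ± 0.07 (adjusted p = 9.60e-06). SGO1, which holds PP2A at centromeres, fell by 0.20 ± 0.08 (adjusted p = 0.0411). The SGO1 call was lost without DMSO replicate 1 (-0.15), DMSO replicate 3 (-0.21), SWTX-143 replicate 1 (-0.20) or SWTX-143 replicate 2 (-0.17), by DESeq2, under both other scalings and with a minimum of 5 CPM.

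**Figure D5:**
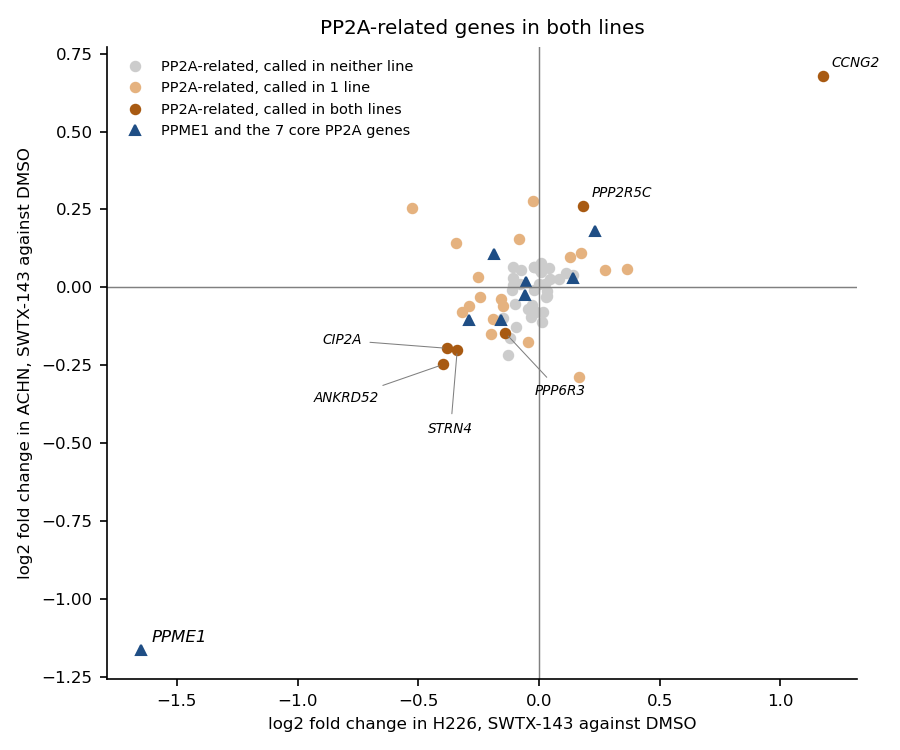
Log2 fold change of SWTX-143 against DMSO in H226 (x axis) and ACHN (y axis) for the PP2A-related genes tested in both lines (circles, coloured by how many lines called them at an adjusted p of 0.05) and for the 8 PP2A genes described first (triangles). PPME1 stands alone at -1.65 and -1.17, CCNG2 is at 1.18 and 0.68, and the other labelled genes lie within 0.40 of 0; PPP2R2B was not tested in ACHN and is not drawn.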

How the data were processed

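Poly(A) RNA of 12 libraries (2 lines, DMSO or SWTX-143) was sequenced as paired 100-base reads. The deposited values are raw counts per gene symbol, 1 table per line. Per the submitters' processing notes, reads were processed with FastQC, cutadapt and STAR 2.6.1d on hg19 (GRCh37). No source used here names the program that counted reads, its annotation, or how it handled strand and reads that map to several genes. Names and coordinates are from RefSeq on GRCh38.p14, and transcript lengths from GENCODE release 29.

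From the counts, each line was tested with edgeR 4.0.16 (robust quasi-likelihood test, TMM scaling, filterByExpr, Benjamini-Hochberg over all genes, limit 0.05), and all 12 libraries together for the contrasts between lines. DESeq2 1.42.0 was an alternative, beside other scalings, filters, a replicate block and leaving out each library. The scripts were tested on simulated data. Replicates of a group differed by more than counting noise (chi-square per degree of freedom 1.36 to 3.42), so none is a copy of another. The biological coefficient of variation was 3.98% in H226 and 3.23% in ACHN.

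The 8 genes, the lists and the tests were chosen with earlier results of these data known. Named were all 8 genes, up to 4 called genes per sub-list and line by p (all of any count of 5 or fewer), the 2 nearest genes on each side of PPME1 and those overlapping it, the 5 genes most like PPME1, and CTGF and CYR61. Genes overlapping a named gene were added after the values were seen. Motif matches were searched on both strands.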

Additional observations from a re-analysis of the deposited data

Results flagged for a closer look

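The SWTX-143 effect differed between the lines for 12 PP2A-related genes, 20.3% of the 59 tested, where 15.6% of all genes did. Values are the H226 change minus the ACHN change on the log2 scale, tested as an interaction with edgeR over all 12 libraries. The difference was -0.49 for AXIN1 (adjusted p = 2.03e-06), 0.45 for PPP2R3A (adjusted p = 0.00195) and -0.23 for SET (adjusted p = 0.000804), and these 3 calls held in each of the 12 refits without 1 library. In H226 the AXIN1 libraries read 58.1, 60.2 and 59.8 CPM with DMSO and 48.9, 45.2 and 46.9 CPM with SWTX-143, and in ACHN 66.4, 69.3 and 65.0 CPM against 78.1, 76.5 and 69.0 CPM. AXIN1 was thus lower in every treated H226 library. In ACHN its groups overlapped, with a log2 change of 0.14 ± 0.05 (adjusted p = 0.0657) that was called with upper-quartile scaling (0.16), by library size alone (0.17) and without SWTX-143 replicate 3 (0.19). PPP2R3A went from 21.5, 22.1 and 23.0 to 23.9, 24.2 and 26.9 CPM in H226 and from 30.9, 30.1 and 31.5 to 25.9, 24.8 and 25.7 CPM in ACHN. PPP2R3A was lower in every treated ACHN library. It was higher in every treated H226 library, but that change was not called (0.16 ± 0.08, edgeR adjusted p = 0.115). The H226 change also stayed uncalled in all 6 refits without 1 library and in 4 of 6 other settings. In the remaining settings it was called (values of 0.16 to 0.21 over the 6).

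The other 9 differences were each lost in at least 1 of the 12 refits. ARPP19 (-0.24, adjusted p = 0.00275) was lost without H226 DMSO replicate 1 (-0.18). STK24 (0.21, adjusted p = 0.0138) was lost without ACHN SWTX-143 replicate 3 (0.18). CCNG2 (0.49, adjusted p = 0.0110) was lost without ACHN DMSO replicate 3 (0.42). IER2 (0.30, adjusted p = 0.0232) was lost without ACHN DMSO replicate 1 (0.27) or ACHN SWTX-143 replicate 3 (0.28). PPP4R4 (-0.79, adjusted p = 0.0123) was lost without H226 DMSO replicate 2 (-0.55) or H226 SWTX-143 replicate 1 (-0.66).

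MASTL (-0.29, adjusted p = 0.0113) was lost without H226 DMSO replicate 2 (-0.24), DMSO replicate 3 (-0.25) or SWTX-143 replicate 3 (-0.17). ANP32B (-0.22, adjusted p = 0.00431) was lost without replicate 2 or 3 of either H226 group (-0.17 to -0.15). PPP2R2C (-0.31, adjusted p = 0.0159) was lost in 6 refits (-0.28 to -0.24): without ACHN DMSO replicate 3, ACHN SWTX-143 replicate 1, H226 DMSO replicate 2 or 3, or H226 SWTX-143 replicate 1 or 2. PPFIA1 (-0.25, adjusted p = 0.0150) was lost in 7 refits (-0.22 to -0.20): without ACHN DMSO replicate 3 or any 1 of the 6 H226 libraries. The differences of MASTL, PPP2R2C, PPP4R4 and PPFIA1 were also not called by DESeq2, and that of PPFIA1 was not called with upper-quartile scaling or without the filter on low counts either.

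PPP2CB had a difference of -0.30 ± 0.07 (SE) between the lines, with every treated library lower in H226 and every treated library higher in ACHN. No test of this difference is reported, because the gene was chosen with its effects known.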

How the results depend on the processing

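The PPME1 change in H226 was -1.60 with upper-quartile scaling and -1.61 by library size alone, against -1.65 with TMM, and ran from -1.66 to -1.63 when each library was left out in turn. In ACHN it ran from -1.20 to -1.12. The number of genes called in ACHN fell from 2401 to 1473 with DESeq2, and the cause was not tested. PPP2CB under DMSO was at -0.0569 between the lines by library size alone, which places it on the other side of 0.

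Leaving out 1 library gave 4753 to 5365 calls in H226 (5486 with all), 1841 to 2174 in ACHN, 1780 to 2253 for the difference between the lines (2286 with all) and 12180 to 12546 for the DMSO comparison (12377 with all). For the PP2A-related list it gave 17 to 20 calls in H226 and 7 to 11 in ACHN. The split of calls into higher and lower moved with scaling. In H226 it was 2567 to 2919 with TMM, 3283 to 2324 with upper-quartile scaling and 3110 to 2419 by library size alone. In ACHN it was 1137 to 1264, 1450 to 1028 and 1537 to 977 in the same order. For the difference between the lines, it was 863 to 1423 with TMM, 1159 to 1045 with upper-quartile scaling and 1056 to 1061 without the filter on low counts. Leaving out any 1 H226 library gave 948 to 1140 higher and 832 to 1006 lower. The share higher ran from 49.3% without DMSO replicate 1 (978 to 1006) up to 54.0% without SWTX-143 replicate 3 (1140 to 971). The cause was not tested.

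Same-numbered libraries did not deviate together (correlations of -0.06 to 0.17 in H226 and -0.16 to -0.06 in ACHN), so the numbers were not taken to pair the samples. With the replicate number as a block, 5744 genes were called in H226, 2146 in ACHN, 2328 for the difference and 12376 for the DMSO comparison, and 23 and 10 genes of the PP2A-related list. The block left PPME1 at -1.65 and -1.16 and ended the PPP2CB call in the DMSO comparison (0.10).

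With 3 libraries per group, small changes such as that of PPP2R5D sit at the limit of what these counts resolve.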
